A study of Homo sapiens with 14 samples.

Results

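CTCF binding in Jurkat cells, an established human line from a T cell acute lymphoblastic leukaemia, was compared between cells with and without knockdown of SATB1. The members were the 6 CTCF libraries of a series of 14, namely 3 from cells infected with a lentivirus carrying a control shRNA (shCtrl) and 3 from cells infected with one carrying an shRNA against SATB1 (shSATB1). The other libraries mapped SATB1, the active-chromatin mark H3K27ac and Matrin 3, and serve here only as annotation. All were made by CUT&Tag, in which a transposase tethered to an antibody cuts and tags the DNA near the bound protein. The labels give no shRNA sequence, time after infection or measure of knockdown, and do not say whether replicates were separate cultures. P-values therefore speak only of how these libraries varied, and that variation may be technical. The peaks of the 6 lists on chromosomes 1 to 22 and X, 147834 in number out of 273747 in all lists of the series, were merged where they shared at least 1 bp. This gave 34146 CTCF regions.

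CTCF is a zinc-finger protein that binds a long, well-conserved DNA motif and stops the loop-extruding cohesin ring, so that pairs of CTCF sites often anchor chromatin loops and domain boundaries. In T cells such loops contribute to the folding of the antigen receptor loci and to contacts between enhancers and promoters. SATB1 is a chromatin organiser abundant in thymocytes, where it binds AT-rich DNA.

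Stretches of 100 bases from 6 promoters that hold the CTCF core motif show it in regions that were kept and lost. They were chosen for the motif and for their high shCtrl rank within each class, and most promoters under a CTCF peak lack it. They come from the RefSeq promoter windows of GRCh38.p14, which run from 250 bases before to 50 bases after a gene's start. Capitals mark a match to a core of the CTCF motif, read as CCA, any 2 bases, AG, any 2 bases and GGC, and searched on both strands. The sequences are printed 5′ to 3′ on the gene's strand. For the first 3 the position of maximum CTCF signal lay inside the window in all 6 libraries. They belong to TMEM170A (chr16:75464804-75464903, minus strand), FAM133B (chr7:92590484-92590583, minus strand) and STAG1, a cohesin subunit (chr3:136752379-136752478, minus strand).
TMEM170A: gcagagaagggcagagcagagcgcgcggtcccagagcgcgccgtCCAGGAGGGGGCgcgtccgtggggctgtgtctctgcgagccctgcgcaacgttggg
FAM133B: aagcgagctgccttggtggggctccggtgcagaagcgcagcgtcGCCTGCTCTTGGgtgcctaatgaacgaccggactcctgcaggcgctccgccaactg
STAG1: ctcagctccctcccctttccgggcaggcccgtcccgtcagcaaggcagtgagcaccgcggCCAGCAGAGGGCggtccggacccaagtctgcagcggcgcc
The other 3 were covered by a peak in every shCtrl library and in no shSATB1 library. They belong to PELP1, a coregulator of nuclear receptors (chr17:4704138-4704237, minus strand), CENPF, a kinetochore protein (chr1:214603019-214603118, plus strand), and SLC14A2, a urea transporter (chr18:45212870-45212969, plus strand).
PELP1: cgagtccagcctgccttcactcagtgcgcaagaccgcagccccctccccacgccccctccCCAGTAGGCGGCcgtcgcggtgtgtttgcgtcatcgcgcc
CENPF: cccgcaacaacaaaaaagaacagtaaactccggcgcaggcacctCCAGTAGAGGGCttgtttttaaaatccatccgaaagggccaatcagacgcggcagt
SLC14A2: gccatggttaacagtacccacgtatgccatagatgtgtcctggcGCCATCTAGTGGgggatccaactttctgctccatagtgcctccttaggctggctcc
By that choice all 6 hold the motif letters, on the gene's strand in TMEM170A, STAG1, PELP1 and CENPF and on the opposite strand in FAM133B and SLC14A2. Within each list, peaks were ranked by their maximum signal, and 100 is the highest percentile. The regions of TMEM170A, FAM133B and STAG1 stood at mean percentiles of 99.9, 99.9 and 99.9 in shCtrl. Those of PELP1, CENPF and SLC14A2 stood at 71.6 ± 3.61, 62.0 ± 0.273 and 56.7 ± 3.08 (SD, n = 3). In shCtrl the maximum lay 28.0 to 39.5 bp from the motif's centre at TMEM170A and 20.5 to 23 bp from it at SLC14A2. It lay 61 to 76.5 bp away at PELP1, 67.5 to 86 bp at CENPF and 135.5 bp at FAM133B. At STAG1 the distance was 108.5 bp in every shCtrl library and 108.5 to 121.0 bp in the shSATB1 libraries.

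The read depth of each library is unknown, because the files give only called peaks. No scaling of the deposited signal between libraries is recorded, and the lists stopped at different levels. The weakest peak by total signal had 13359 to 14792 units in shCtrl and 6017 to 7332 in shSATB1, and the median maximum signal was 62 to 70 against 27 to 32. A change in CTCF and a difference in depth or background between the arms cannot be told apart from such lists, so the main counts are also given for every list cut to its 14695 highest peaks, the length of the shortest list. The makeup of lost regions and the shares by gene end and H3K27ac are for whole lists. The T cell identity of the line was checked on H3K27ac at gene ends. Of 14 T cell markers, 12 to 13 had a peak in each of the 4 H3K27ac libraries, with GATA3 absent from all 4. Of 6 B cell markers, CD79A and BLK had one, and none of 6 myeloid, 6 erythroid or 6 epithelial markers did. Peak lists do not measure the knockdown itself. At the ends of SATB1, CTCF peaks were called in all 6 libraries, at list percentiles of 80.2, 77.5 and 85.3 in shCtrl and 78.3, 71.7 and 68.7 in shSATB1.

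The shSATB1 lists were shorter and their peaks narrower. The 3 shCtrl lists held 31270, 31141 and 32540 peaks, and the 3 shSATB1 lists 14695, 17904 and 20284. Every shCtrl list was longer than every shSATB1 list, and the shSATB1 lists differed more among themselves. Peaks covered 90.1, 93.5 and 102 Mb in shCtrl and 24.5, 33.8 and 40.8 Mb in shSATB1. The median peak width was 2371, 2454 and 2559 bp in shCtrl and 1469, 1650 and 1746 bp in shSATB1. With lists of equal length the widths stood further apart, at 2808, 2924 and 3103 bp against 1469, 1690 and 1850 bp. None of these values overlapped between arms, and each gave an exact permutation p of 0.1 (two-sided, n = 3 per arm). That is the smallest p that 3 against 3 libraries can give, and 0.108 after adjustment over 14 library measures, so no library measure could pass 0.05.

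**Figure D1:**
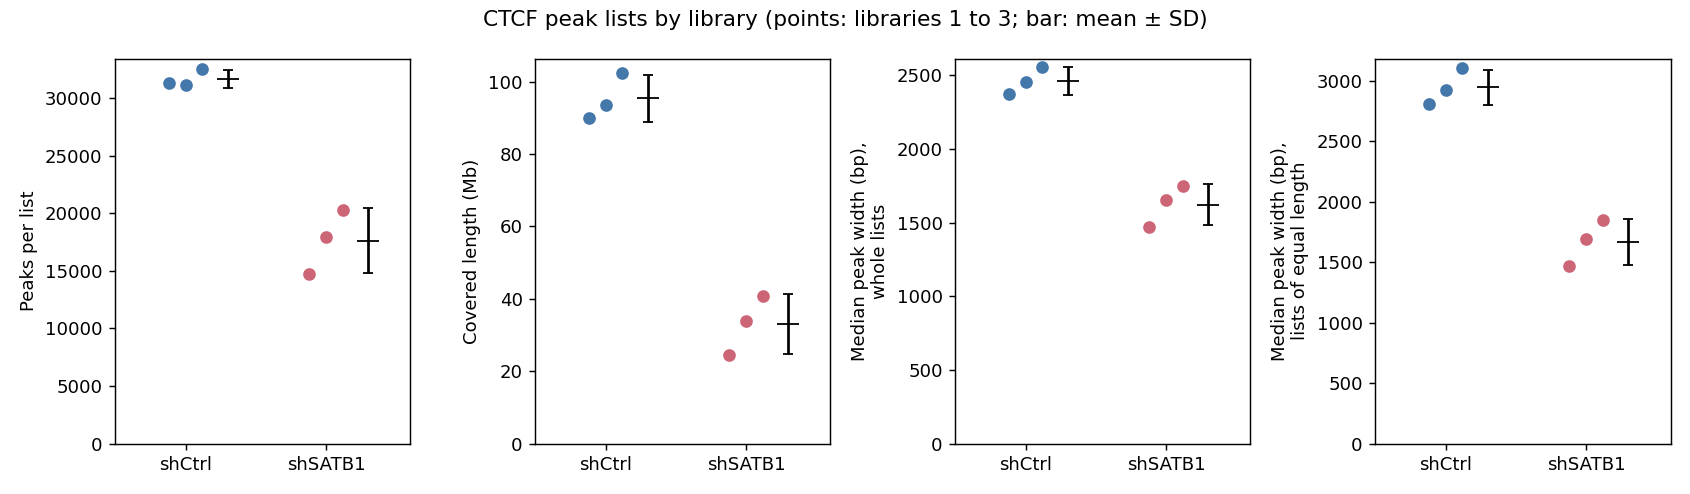
Number of peaks, covered length in Mb and median peak width in bp for each CTCF library, with widths shown for whole lists and for lists cut to 14695 peaks; points are libraries, bars the mean and SD of 3. In all 4 panels the shSATB1 points lie below the shCtrl points.

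Regions that kept CTCF were narrower. The 12184 regions called in all 6 libraries were fitted with limma on log2 of the called base pairs. With adjusted p under 0.05, 8435 regions (69.2%) were narrower in shSATB1 and 0 (0%) were wider. Without shCtrl replicate 3 the narrower count was 5393 of 12344 (43.7%). The median difference was -0.81 on the log2 scale. The median called width per region was 3156, 3274 and 3466 bp in shCtrl and 1542, 1841 and 2032 bp in shSATB1. Per region, the median width in the 3 shSATB1 libraries was 49.5, 58.9 and 64.9% of the shCtrl width, or 57.8 ± 7.79% (SD, n = 3). The share was 59.5 ± 7.81% within 2 kb of an annotated end of a protein-coding gene and 54.8 ± 7.63% over 100 kb from any. Shared regions were also split more often. In shCtrl 5.20 to 8.01% of them held more than 1 peak, and in shSATB1 10.6 to 12.4%.

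In the 9691 shared regions with 1 peak in every library, the position of the maximum was less reproducible in the shSATB1 libraries. The median distance between the maxima of a pair of libraries was 18.5 to 19.5 bp within shCtrl, 36.0 to 41.0 bp within shSATB1 and 31.0 to 36.0 bp between the arms. Pairs from different arms were thus no farther apart than pairs of shSATB1 libraries.

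Some regions departed from this general narrowing. After each library's log2 widths were centred on their own mean, limma called 92 regions (0.755%) relatively wider and 383 (3.14%) relatively narrower in shSATB1. With 1 library left out these were 1 to 38 and 45 to 341. The narrower ones were long regions, with a median merged length of 7957 bp against 4087 bp for all shared regions, and the wider ones short, with 2232 bp. Merged length spans the same peaks whose widths were tested, so this contrast follows in part from the selection. The region at SYT8 and TNNI2, genes of a synaptotagmin and of fast-muscle troponin I (chromosome 11, 1828557 to 1839299), was called over 10473, 9226 and 9421 bp in shCtrl and 1016, 753 and 1371 bp in shSATB1 (limma adjusted p = 0.0029 after centring). It kept its call in every alternative, as did SLC31A2, a copper transporter family gene. At ITGB7, the gut-homing integrin subunit of lymphocytes, the called width was 11894, 9362 and 12107 bp in shCtrl and 1087, 1562 and 1743 bp in shSATB1 (limma adjusted p = 0.0026 after centring). The centred difference was -2.07 on the log2 scale. In fits on peaks merged anew it was -0.36 without shCtrl replicate 1, -0.81 without shCtrl replicate 3 and -0.71 at equal length. The call was lost in all 3 (limma adjusted p = 0.39, 0.23 and 0.19). The widths above cannot give the values without a replicate, so these belong to a different interval. They do not show that the narrowing rests on 1 shCtrl library. CHST11, a chondroitin sulfotransferase, was called over 17761, 19484 and 20868 bp in shCtrl and 1534, 1992 and 5553 bp in shSATB1. Its call was lost at equal length and in all left-out fits but the one without shSATB1 replicate 3 (limma adjusted p = 0.055 to 0.15). The shSATB1 width was 10.5% of the shCtrl width at SYT8 and 13.3% at SLC31A2. The relatively wider regions lay at the ends of UBALD2, of NR1D2, a nuclear receptor of the circadian clock, of ZNF101, and of TFDP1, the partner of E2F factors. At NR1D2 the called width was 1082, 1218 and 1256 bp in shCtrl and 1357, 1535 and 1839 bp in shSATB1, 132% of the shCtrl width. The arms did not overlap there (limma adjusted p = 0.0093 after centring). The call held in every left-out fit but was lost in another alternative (limma adjusted p up to 0.096). At UBALD2 the widths overlapped, at 1025, 960 and 1406 bp in shCtrl and 950, 1842 and 2504 bp in shSATB1. At TFDP1 they also overlapped, at 837, 1414 and 1529 bp against 1460, 1358 and 1358 bp, and every alternative lost the call (limma adjusted p = 0.062 to 0.49). UBALD2 and ZNF101 lost theirs in some left-out fits. Without centring none of the 4 was called wider.

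Losses outnumbered gains in the whole lists. Of 34146 regions, 7747 (22.7%) were called in every shCtrl and no shSATB1 library, and 3 (0.00879%) in no shCtrl and every shSATB1 library. A further 3678 and 3397 regions of all 3 shCtrl libraries were called in 1 and in 2 shSATB1 libraries. The lost regions ranked low, with a median shCtrl percentile of 27.9 against 79.5 for the regions called in all 6. They also lay farther from genes. Among lost regions 24.5% were within 2 kb of a gene end and 13.3% over 100 kb away, and among regions called in all 6 these shares were 56.9 and 3.93%. H3K27ac in the first shCtrl library overlapped 32.5% of lost and 56.0% of fully shared regions.

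In lists of equal length the 2 directions were closer. Of 18458 regions 598 (3.24%) were lost and 214 (1.16%) gained, and 9875 were called in all 6. In the whole lists, 375 of the 598 lost regions were still in no shSATB1 list. Of the 214 gained regions, 211 were in all 3 whole shCtrl lists and the other 3 in some. These counts cannot be set against each other. No lost region could be in all 3 whole shSATB1 lists, because the shortest was not cut. Each whole shCtrl list held 98.8 to 99.8% of the regions of any whole shSATB1 list. The gains at equal length were higher places in the ranking, not regions that the shCtrl libraries lacked. Overlap between libraries followed the length of the lists. The share of regions of either library that both called was 85.5 to 85.8% within shCtrl, 67.9 to 76.8% within shSATB1 and 41.5 to 60.3% between arms in whole lists. At equal length it was 83.9 to 85%, 73.7 to 76.6% and 69.4 to 75.3%, so that pairs between arms overlapped the range of pairs within shSATB1.

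The highest-ranked regions lost near genes at equal length lay at POLR2J, a subunit of RNA polymerase II, CXCL3, a neutrophil chemokine, CLUL1, DAGLB, a diacylglycerol lipase, and CMC1, a mitochondrial assembly factor. Their percentiles in the 3 shCtrl lists of equal length were 74.6, 57.5 and 64.9 at POLR2J and 65.9, 59.9 and 53.8 at CXCL3. All 5 were in no whole shSATB1 list either. The highest-ranked gains lay at KLHDC4, TGIF2, a homeobox repressor, RINL, TADA3, an adaptor of histone acetyltransferase complexes, and NLRP8. All 5 were in all 3 whole shCtrl lists, each of which held nearly all regions of the shSATB1 lists.

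Whether a control region was called again followed its control rank. Of the 30205 regions called in at least 2 shCtrl libraries, the 3 shSATB1 libraries called 43.5, 53.0 and 60.1%, or 52.2 ± 8.34% (SD, n = 3). In the lowest decile of shCtrl rank 0.960, 4.305 and 9.11% were called. In the fifth decile the shares were 25.2, 41.7 and 54.5%, and in the highest decile 99.83, 99.97 and 99.97%. The order of the 3 libraries was the same in all deciles but the highest, where libraries 2 and 3 were equal. The shCtrl libraries themselves, which the choice of regions favours, called 84.96 ± 5.19% of the lowest and 100% of the highest decile. At equal list length 82.4 ± 2.67% of 14293 regions were called again.

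**Figure D2:**
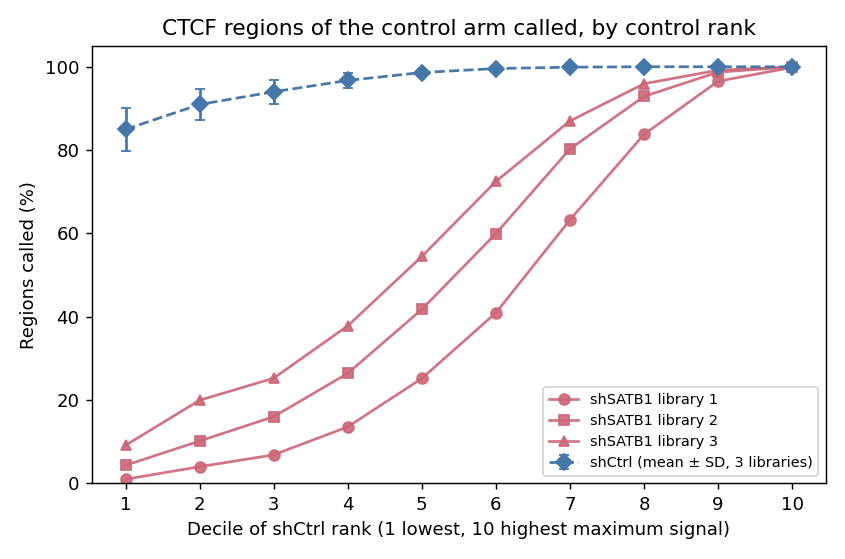
Percent of the 30205 control regions called in each shSATB1 library (red) and, as mean ± SD of 3, in the shCtrl libraries (blue), by decile of mean shCtrl rank. The red lines climb from 0.960 to 9.11% in the lowest decile to 99.83 to 99.97% in the highest.

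Regions near genes were called again more often, and part of that difference went with rank. Regions within 2 kb of a gene end were called again in 69.1 ± 6.79% of cases, those 10 to 50 kb away in 42.6 ± 9.41% and those over 100 kb away in 30.2 ± 9.31% (SD, n = 3). The difference between the nearest and farthest class was 39.0 ± 2.75 percentage points and positive in all 3 libraries. Regions near genes also ranked higher, with a median shCtrl percentile of 67.5 against 34.0. With each decile of shCtrl rank given equal weight the shares were 55.8 and 46.3%, a difference of 9.51 ± 0.960 points, and at equal list length they were 87.9 and 67.0%, a difference of 20.9 ± 3.83 points. The nearest class was thus the highest under all 3 treatments.

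**Figure D3:**
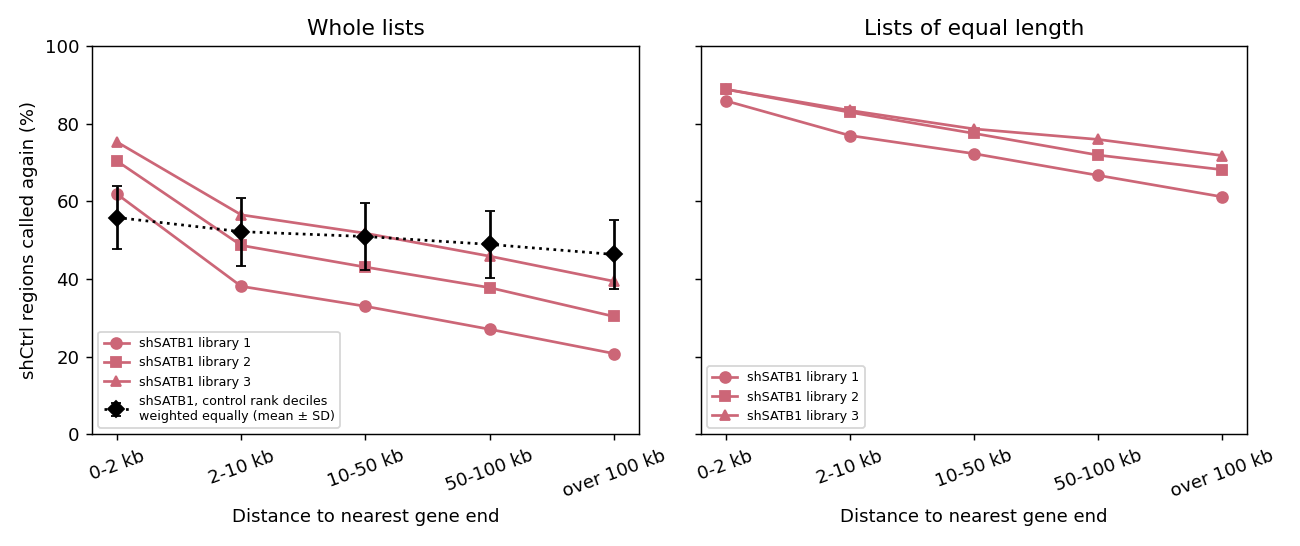
Percent of control CTCF regions called again in each shSATB1 library by distance to the nearest gene end, for whole lists and for lists of equal length; black diamonds give the mean ± SD with control rank deciles weighted equally. Every line falls with distance, from 69.1 to 30.2% on average in whole lists and from 55.8 to 46.3% after weighting.

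The share of all peaks near gene ends gave opposite answers in the 2 kinds of list. In whole lists it was 37.1, 37.5 and 36.6% in shCtrl and 49.1, 46.2 and 43.7% in shSATB1. In lists of equal length it was 50.8, 51.2 and 51.7% in shCtrl and 49.1, 49.0 and 48.6% in shSATB1. The arms did not overlap in either case (exact permutation p = 0.1, n = 3 per arm), and the direction reversed. The share over 100 kb from a gene end was lower in shSATB1 in both, at 4.90 ± 0.768 against 8.65 ± 0.200% in whole lists and 4.38 ± 0.286 against 4.89 ± 0.0785% at equal length (SD, n = 3).

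Shares called again also differed by the end of the gene. Where strand was known, regions at a 5′ end alone were called again in 70.7 ± 6.99% of cases, at a 3′ end alone in 59.1 ± 8.01% and at ends of both kinds in 80.6 ± 4.78% (SD, n = 3). Regions inside a gene but away from its ends reached 42.5 ± 9.75%, and those outside genes 40.9 ± 8.80%. With rank deciles weighted equally, 5′ and 3′ ends gave 55.6 and 55.7%, while both kinds of end gave 59.7%, gene bodies 52.8% and intergenic regions 48.0%. Regions with H3K27ac in all 4 libraries of that mark were called again in 67.2 ± 7.58% of cases and those with none in 42.5 ± 8.92%. After weighting, these were 59.1 ± 9.19 and 48.8 ± 8.08%. The 469 regions with H3K27ac in both shCtrl libraries and neither shSATB1 library reached 39.5 ± 7.27%. The 183 with the opposite pattern reached 65.0 ± 8.79%. These 2 small classes also differed in shCtrl percentile, with medians of 37.7 and 58.2, and after weighting reached 49.1 and 58.1%.

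Chromosomes also differed. On chromosome 19, the most gene-dense, 69.5 ± 6.25% of control regions were called again, followed by chromosomes 17 (64.0 ± 7.59%), 22 (60.2 ± 8.58%) and 16 (59.9 ± 9.20%). The lowest shares were on chromosomes 18 (36.9 ± 8.66%) and X (39.2 ± 8.20%) (SD, n = 3 throughout). Within each library the order of these extremes held, with 62.6, 71.2 and 74.7% on chromosome 19 and 28.0, 37.4 and 45.3% on chromosome 18. The difference between them was 32.6 ± 2.78 points, 17.99 ± 3.15 at equal length and 10.1 ± 1.82 with rank deciles weighted equally. Across the 23 chromosomes, which share the same libraries, the share called again had a Pearson r of 0.819 and a Spearman rho of 0.888 with genes per Mb, and of 0.969 and 0.962 with the chromosome's median shCtrl percentile. After weighting, r was 0.631 with gene density and still 0.810 with the median shCtrl percentile. With the share of a chromosome's regions within 2 kb of a gene end, r was 0.615 and rho 0.511, and 0.380 and 0.288 after weighting. Chromosome X, among the lowest, had 45.7% of its regions near gene ends, and chromosome 18 had 31.0%.

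**Figure D4:**
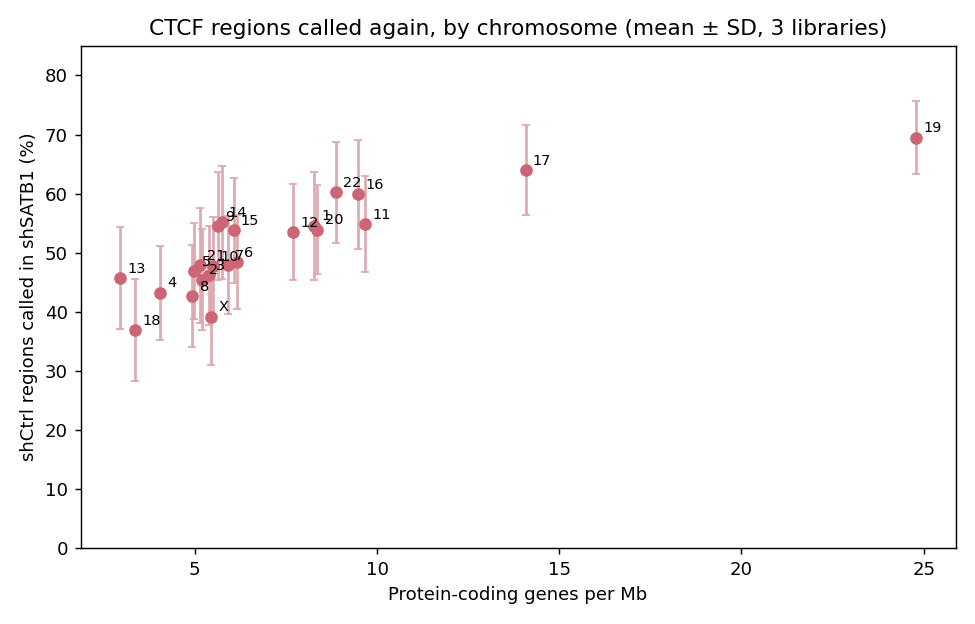
Percent of control CTCF regions called in shSATB1 libraries (mean ± SD, n = 3) against protein-coding genes per Mb for each of 23 chromosomes. Chromosome 19 stands at the upper right with 69.5%, and chromosomes 18 and X lowest with 36.9 and 39.2%.

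Most lost regions lay in short runs. The 7747 lost regions fell into 5740 runs of neighbouring lost regions, of which 392 held 3 or more, and these runs held 17.4% of the lost regions. Lost regions made up 22.7% of all regions. The share in such runs under random order was not computed, so these counts do not tell scatter from clustering. The longest runs held 7 regions. One lay between 36264151 and 36746242 on chromosome 5, with ends of RANBP3L and of SLC1A3, a glial glutamate transporter. Another lay between 11518102 and 11939008 on chromosome 18, with ends of GNAL, an olfactory G protein subunit, CHMP1B and MPPE1. Another, between 119475658 and 119704564 on chromosome 2, held ends of SCTR, the secretin receptor, CFAP221 and TMEM177, and the remaining one, on chromosome 12, no gene end.

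Few shared regions changed rank by the test. Limma was fitted to normal scores of the rank of maximum signal within each library among the 12184 regions called in all 6. With adjusted p under 0.05, 92 regions (0.755%) ranked higher and 32 (0.263%) lower in shSATB1. Unadjusted, 2721 regions had p under 0.05. No region passed when lists of equal length were used, and 0 to 7 higher and 0 to 6 lower regions did when 1 library was left out. The calls below are therefore not stable to the choice of libraries. Each of the named genes had 3 shCtrl and 3 shSATB1 values that did not overlap, which is a property of regions chosen for their difference.

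The 8 gene-end regions with the largest rise in rank stood low in the shCtrl order, which a choice by largest rise favours. Over all 92 higher regions the median shCtrl list percentile was 53.2, against 79.5 for all shared regions. At KLHDC4 (chromosome 16, 87763353 to 87770391) the percentile among shared regions was 2.67, 2.54 and 8.14 in shCtrl and 43.6, 30.1 and 37.1 in shSATB1 (limma adjusted p = 0.039). At QTRT1, the catalytic subunit of the enzyme that puts queuosine into tRNA, it was 12.5, 17.7 and 13.8 in shCtrl and 53.4, 59.2 and 53.7 in shSATB1 (limma adjusted p = 0.037). BHLHA9, a factor of limb development, went from 7.70 ± 4.58 to 40.8 ± 5.90, and NLRP8 from 1.67 ± 0.601 to 32.4 ± 13.4 (SD, n = 3). C19orf25 and KLHDC7B had shSATB1 means of 25.6 and 23.2 and shCtrl means of 2.97 and 1.18. At SGSH, the lysosomal sulfamidase, and H2AC14, a histone gene, the means were below 0.1 in shCtrl and only 4.15 and 6.54 in shSATB1. Their difference is large on the normal-score scale and small in percentile.

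The 8 gene-end regions with the largest fall in rank stood higher in the shCtrl order, which a choice by largest fall requires. Over all 32 lower regions the median shCtrl list percentile was 80.6. At PTPRE, a receptor tyrosine phosphatase (chromosome 10, 127903528 to 127909501), the percentile was 71.7, 77.0 and 69.5 in shCtrl and 11.7, 32.5 and 7.25 in shSATB1 (limma adjusted p = 0.049). At KRT13, a keratin gene, it was 81.9, 84.6 and 82.1 in shCtrl and 27.6, 49.6 and 51.0 in shSATB1 (limma adjusted p = 0.0499). At TAMALIN, a scaffold protein of receptor trafficking, it was 68.7, 69.8 and 66.1 in shCtrl and 17.6, 12.4 and 28.4 in shSATB1 (limma adjusted p = 0.037). HPN, a membrane serine protease, went from 51.4 ± 2.07 to 7.71 ± 4.75, and RARS1, the arginyl-tRNA synthetase, from 48.2 ± 5.74 to 15.3 ± 3.79 (SD, n = 3). CLEC20A, IGSF21 and COX6B1, a subunit of cytochrome c oxidase, had shSATB1 means of 4.89, 6.71 and 9.97 and shCtrl means of 34.9, 32.4 and 40.7. Of these 8 regions, TAMALIN and COX6B1 carried H3K27ac in both shCtrl libraries and none carried SATB1 in both of its libraries. Over all 32 lower regions 53.1% carried H3K27ac and 21.9% SATB1, and over all shared regions 53.0 and 40.5%. The 92 higher regions were below the shared regions too, at 48.9 and 35.9%. Among the higher regions named above, H2AC14 alone carried SATB1 in both of its libraries.

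**Figure D5:**
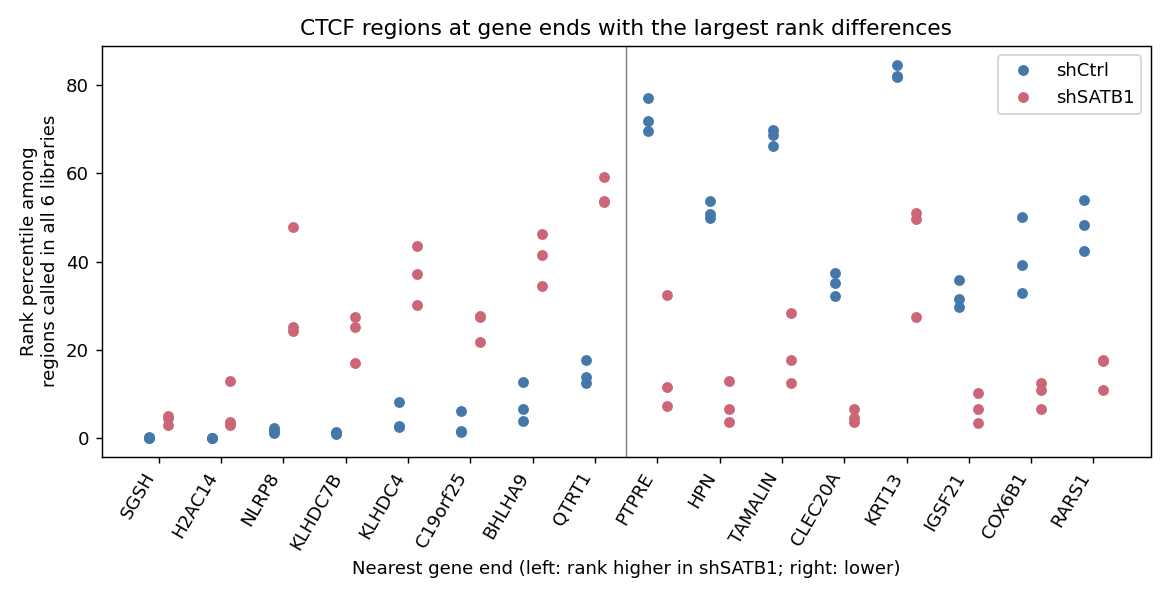
Rank percentile of maximum CTCF signal among the 12184 shared regions in each library, for the 8 gene-end regions with the largest higher and lower rank in shSATB1; points are libraries. KLHDC4 and QTRT1 rise to 30.1 to 59.2, while PTPRE, HPN and TAMALIN drop to 3.67 to 32.5. The genes were selected for these differences.

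Differences between classes of shared regions were slightly smaller in shSATB1 for 2 of 3 classes compared. The median percentile of regions at gene ends exceeded that of regions over 100 kb away by 24.6 ± 1.10 points in shCtrl and 22.8 ± 0.279 in shSATB1. Regions with H3K27ac exceeded those without by 12.5 ± 0.206 and 11.2 ± 0.645 points (SD, n = 3). For both, the arms did not overlap (exact permutation p = 0.1, adjusted 0.108), and differed by less than 2 points. Regions over a promoter with the CTCF core motif exceeded those over one without by 16.2, 15.9 and 14.4 points in shCtrl and 13.3, 15.5 and 14.1 in shSATB1, which overlapped (exact permutation p = 0.2).

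At gene ends, 11580 of 19974 protein-coding genes had a CTCF peak within 2 kb in all 3 shCtrl libraries. Of these 7577 (65.4%) had one in every shSATB1 library, 2289 in some and 1714 (14.8%) in none. No gene (0%) of the 7364 without a call in shCtrl had one in every shSATB1 library. At equal list length, of 8005 genes 6653 (83.1%) were kept and 325 (4.06%) lost, and 59 (0.561% of 10518) were gained. For 11.8% of the 1714 lost genes the same region was still called in shSATB1, in all 3 libraries for 140 genes, but no shSATB1 peak came within 2 kb of either annotated end. Counted by the position of the maximum, 10307 genes had end-proximal CTCF in all 3 shCtrl libraries, of which 6735 (65.3%) were kept and 1507 (14.6%) lost, and 63 (0.741% of 8498) were gained.

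The strongest gene-end sites were kept in every library. The highest peak of all 6 lists lay at neighbouring FBRS and PRR14 on chromosome 16, the second of these a protein that tethers heterochromatin to the nuclear lamina. The peaks at C1QTNF6, at C5AR2, a receptor for complement C5a, with DHX34, and at DHRS13 followed in each shCtrl list. In shSATB1 they stood at list percentiles of at least 99.9 in all 3 libraries. SSTR3, a somatostatin receptor, and PHF12 touched the edges of the C1QTNF6 and DHRS13 peaks. Their nearest maxima stood at 86.3 to 88.3 and 97.2 to 97.4 in shCtrl.

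Gene lists for the T cell setting were read against the background of 65.4% kept and 14.8% lost, or 83.1 and 4.06% at equal list length. In no list was the number of lost members larger at equal length than in whole lists. Members low in the shCtrl lists are not counted at equal length. Each list with a loss at equal length lost 1 or 2 members, a share above 4.06% in lists of so few genes. For T cell receptor signalling, 19 of 24 members had CTCF at an end throughout shCtrl, 18 of them were kept and 0 lost, and at equal length 17 of 17 were kept. CD28, the costimulatory receptor, was called in part of the shSATB1 libraries. For the 13 members with a maximum at an end in all 6 libraries, none passed the limma rank test and 11 passed the width test, beside 0.755% higher and 0.263% lower in rank and 69.2% narrower among all shared regions. CBL, a ubiquitin ligase that restrains receptor signalling, had percentiles among shared regions of 96.8, 96.4 and 96.5 in shCtrl and 97.8, 97.4 and 98.7 in shSATB1 (limma adjusted p = 0.29). FYN, a Src-family kinase, had 75.1, 78.7 and 70.1 in shCtrl and 68.3, 53.3 and 58.8 in shSATB1 (limma adjusted p = 0.17). CD3D and CD3G, subunits of the receptor complex that share 1 region, had 64.9 ± 4.97 and 48.3 ± 5.96 (SD, n = 3).

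Of 23 T-lineage transcription factors 21 had CTCF at an end in shCtrl, 17 were kept and 1, TCF12, an E-protein, was lost. At equal length 16 of 17 were kept and 0 lost. BCL11B, which fixes T cell commitment, had shared-region percentiles of 98.3, 98.7 and 98.7 in shCtrl and 98.4, 97.8 and 98.7 in shSATB1, which overlapped. Among genes of thymocytes and V(D)J recombination, 15 of 18 had CTCF in shCtrl, 8 were kept and 4 lost, and at equal length 5 of 7 were kept and 1 lost. The lost ones in whole lists were XRCC4, DCLRE1C and PRKDC, which act in end joining, and PTCRA, a chain of the early thymocyte receptor. Their list percentiles in shCtrl were 66.5, 71.0 and 61.0 for XRCC4, 49.1, 57.4 and 46.2 for DCLRE1C, 29.4 ± 12.5 for PRKDC and 7.99 ± 6.21 for PTCRA (SD, n = 3). The lost members ranked below RAG1, a subunit of the V(D)J recombinase, and CD8A, which were kept. RAG1 had shared-region percentiles of 85.7, 86.2 and 85.8 in shCtrl and 83.7, 77.8 and 72.9 in shSATB1, and CD8A 79.9 ± 1.12 and 86.2 ± 4.12 (limma adjusted p = 0.24 and 0.28).

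Chromatin architecture genes all had CTCF at an end in shCtrl, 26 of 26, and 21 were kept. At equal length 20 of 20 were. TOP2B, a topoisomerase found at loop anchors, was lost, at list percentiles of 36.5, 41.6 and 42.0 in shCtrl. STAG1 and CTCF itself were among the highest. STAG1 had shared-region percentiles of 99.6, 99.8 and 99.7 in shCtrl and 99.4, 99.4 and 99.3 in shSATB1, and CTCF 97.6, 96.9 and 97.1 against 97.7, 97.7 and 97.5 (limma adjusted p = 0.25 and 0.73). LMNB2, a lamin of the nuclear periphery, was the 1 member of this list that passed the rank test. It had 17.2, 29.0 and 22.96 in shCtrl and 59.3, 49.6 and 57.6 in shSATB1 (limma adjusted p = 0.0499), while its called width fell from 4689, 4926 and 6738 bp to 1414, 1563 and 2015 bp (limma adjusted p = 0.0012). NIPBL, the cohesin loader, had 16.9 ± 2.66 and 40.3 ± 12.9 and did not pass (limma adjusted p = 0.10). LMNB2 and NIPBL here, FYN, CD28, CD3D and CD3G above, and EGR1, H1-3 and DLX2 below were named after their values were seen.

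Cell cycle genes were called in shCtrl in 22 of 22 cases, kept in 11 and lost in 4. At equal length 7 of 9 were kept and 1 lost. CCNB1, the mitotic cyclin, MCM5, of the replicative helicase, and MKI67 were in no shSATB1 list, at shCtrl list percentiles of 60.3 ± 8.40, 45.1 ± 1.30 and 39.5 ± 4.99 (SD, n = 3). CDKN1A, the p53-induced inhibitor, lost its gene-end call while its region was still called in all 3 shSATB1 libraries. PCNA, the replication clamp, had shared-region percentiles of 98.7, 98.7 and 98.6 in shCtrl and 98.4, 98.3 and 98.9 in shSATB1. Of 18 apoptosis genes called in shCtrl 13 were kept (12 of 14 at equal length, with 0 lost) and BAX and BIRC5 lost, the first of these with its region still called in all 3 libraries. Of 21 immediate-early and NF-kappaB genes 18 were kept, and 17 of 18 at equal length, with 1 lost. FOS and NFKB1 were lost, and both were low in shCtrl, at 11.2 ± 4.48 and 18.4 ± 10.4. JUND and EGR1 had shared-region means of 97.6 and 97.6 in shCtrl and 97.6 and 97.3 in shSATB1.

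Of 17 leukaemia and Notch genes with CTCF in shCtrl 13 were kept and TAL1, LMO2, NOTCH3 and PHF6 lost. At equal length 11 of 12 were kept and 0 lost. LMO2 and PHF6 were in no shSATB1 list, at shCtrl list percentiles of 38.5 ± 5.21 and 47.0 ± 2.32. At TAL1 and NOTCH3 the region was still called in all 3 shSATB1 libraries, farther than 2 kb from both gene ends. MYC kept its call, at shared-region percentiles of 90.8, 88.4 and 87.2 in shCtrl and 85.6, 88.3 and 90.5 in shSATB1, which overlapped. DTX1, a Notch target, had 41.3 ± 5.31 and 17.2 ± 4.63 (limma adjusted p = 0.06), and was named after its values were seen.

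Chemokine and cytokine genes had fewer calls. Of 18 chemokine genes 9 were called in shCtrl, 5 kept and 4 lost, namely CXCL3, CXCR3, CXCR5 and CCR4. At equal length 5 of 7 were kept and 2 lost. The region at CCR4 remained in all 3 shSATB1 lists. Of 24 cytokine genes 10 were called, 4 kept and 1, IL10, lost, and at equal length 2 of 4 kept and 0 lost. Of 20 ribosomal protein genes 16 were kept and RPS6, RPS7, RPL30 and RPL37 lost, at shCtrl list percentiles of 71.2 ± 1.95 for RPS6 and 46.1 to 53.7 for the others. The region at RPL30 was still called in 1 shSATB1 library. At equal length 16 of 17 were kept and 1 lost. RPL5, the highest of this list, had shared-region percentiles of 99.2, 99.3 and 99.1 in shCtrl and 97.0, 97.7 and 96.5 in shSATB1, which did not overlap and did not pass (limma adjusted p = 0.07).

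Clustered loci, where CTCF sites repeat, varied. In the HOXA cluster 7 of 11 genes were called in shCtrl, 2 kept and 3 lost, and at equal length 2 of 4 kept and 0 lost. HOXA10 and HOXA11 shared 1 lost region, at list percentiles of 43.3, 51.5 and 45.4 in shCtrl. HOXA9 was kept, with shared-region percentiles of 69.0, 56.3 and 63.1 in shCtrl and 51.2, 64.1 and 70.6 in shSATB1. In the HOXB, HOXC and HOXD clusters 18 of 28 genes were called, 11 kept, and HOXB3, HOXB4 and HOXD8 lost, and at equal length 7 of 9 kept and 1 lost. The region at HOXB3 was still called in all 3 shSATB1 libraries. For the clustered protocadherins 23 of 53 genes were called in shCtrl, 2 kept and 21 called in part of the shSATB1 libraries. At equal length 1 of 22 was kept and 0 lost. The gamma genes end at the same base of chromosome 5, 141512975, so these 21 losses in the first shSATB1 library rest on 1 region. Its shCtrl list percentiles were 72.3, 70.2 and 64.5. PCDHGA10 has a peak of its own, with shared-region percentiles of 42.0, 33.0 and 30.4 in shCtrl and 8.86, 17.5 and 12.9 in shSATB1 (limma adjusted p = 0.07). Of 23 replication-dependent histone genes called in shCtrl 21 were kept and 0 lost, and at equal length 10 of 14 were kept and 0 lost. The highest was H4C2, with 80.0, 80.0 and 75.9 in shCtrl and 90.5, 87.1 and 88.3 in shSATB1 (limma adjusted p = 0.11), and H1-3 passed, with 2.83 ± 1.01 and 16.5 ± 1.40 (limma adjusted p = 0.039).

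Lists of genes of other lineages were small. B-lineage genes had CTCF in shCtrl in 9 of 14 cases, with 2 kept and 5 lost, namely BLK, CR2, POU2AF1, VPREB1 and IGLL1. At equal length 3 were called, 2 kept and 0 lost. At BLK the region remained in all 3 shSATB1 lists. BTK was kept, with shared-region percentiles of 93.5, 93.2 and 94.5 in shCtrl and 83.3, 87.1 and 88.3 in shSATB1 (limma adjusted p = 0.10). Of 6 myeloid genes 3 were kept and SPI1 and S100A9 lost, and at equal length 2 of 3 were kept and 1 lost. The region at S100A9 was still called in 2 shSATB1 libraries. Of 7 neuronal genes 3 were kept and SYP and SYN1 lost, and at equal length 3 of 5 were kept and 1 lost. The region at SYP was still called in all 3 shSATB1 libraries. DLX2, a homeobox gene of this list, passed the rank test, at 25.6, 24.8 and 37.5 in shCtrl and 67.0, 65.2 and 64.3 in shSATB1 (limma adjusted p = 0.042). Of 5 erythroid genes 4, of 4 epithelial and stromal genes 3, and of 7 imprinted genes 5 were kept. Of 18 MHC-list genes only CIITA was called in shCtrl, and it was kept. Over all lists, 156 genes, on 147 regions, had a maximum at an end in all 6 libraries. Of these genes LMNB2, DLX2 and H1-3 passed the rank test and 91 the width test. Among all shared regions 0.755% were higher and 0.263% lower in rank, and 69.2% were narrower. Genes that share a region were counted singly.

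The motif was more frequent at promoters with CTCF, and whether regions with it were called again more often depended on the weighting by rank. The core occurred in 2.53% of 22012 protein-coding promoter windows of 300 bases on either strand. It occurred in 1.85% of the 9871 windows with no CTCF peak in any list, in 3.70% of the 6863 under a peak in all 6 lists and in 4.95% of the 2807 that held the maximum in all 6. In the 1624 windows lost in shSATB1 the share was 2.59%. These classes differed in base composition, with a median GC content of 56.0% without CTCF, 67.0% under a peak in all 6 and 63.3% in lost windows. Regions over a promoter with the motif were called again in 79.4 ± 4.89% of 336 cases, and those without in 73.5 ± 6.66% of 7878 (SD, n = 3). With rank deciles weighted equally the order turned, at 51.3 ± 7.57 and 57.1 ± 8.48%, with only 5 motif regions in the smallest decile. A match is a description of letters in the window, not a CTCF site.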

How the data were processed

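The deposited values are SEACR peak lists, 1 per library, whose signal columns hold the coverage summed over a peak and its highest value. The submitters' processing notes name SEACR, MACS2, Bowtie2, deepTools, SAMtools and Trim Galore, with GRCh38. Their versions, the alignment filters and controls are not given in the sources used here. No scaling of signal between libraries is recorded, so signal was used only to rank peaks within a list. Of 148005 CTCF peaks, 171 (0.116%) on other sequences were left out.

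Gene ends were those of 19974 protein-coding genes in the RefSeq GRCh38.p14 table. Strand was known for 15813 of them through the promoter table. Exons and introns were not told apart. A gene end counts as near a region within 2 kb of a peak's edge. Regions called in all 6 libraries were fitted with limma 3.58.1 (R 4.3.3) on normal scores of rank and on log2 width, with Benjamini-Hochberg adjustment over all regions and a threshold of 0.05. Single library measures used exact permutation tests. Rank-weighted shares average the 10 deciles of shCtrl rank equally. On simulated tables of 12184 regions, the rank fit recovered 61 of 100 planted differences of size 1 and 92 of 100 of size 2, with 6 unplanted calls, and the width fit 27 and 76 of 100, with 1. Sizes are in normal scores for rank and in log2 units for width. The simulated noise was independent, with the same spread in both arms, and only 200 regions were shifted. Such tables do not give the recovery or error of the real fits, where most widths shifted and the arms varied differently.

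Genes named were the 8 gene-end regions with the largest rank difference in each direction past the threshold, the 4 with the largest centred width difference, the 8 genes with the highest shCtrl percentile, the 5 highest lost and gained at equal length, the lost and the 3 highest members of each of 22 lists, and SATB1 and CTCF. Some listed genes are not reported here. Promoter sequences were the 3 highest-ranked with the motif in each of the kept and lost classes. Kept meant that the midpoint of the maximum lay in the window, because the planned rule named the interval of the maximum. The members and lists were chosen with earlier results of these data known. Alternatives covered overlap rules, windows on the maxima, equal list length, other ranks and moderation, other gene windows, a replicate block and the loss of any 1 library. Scripts ran in Python 3.11.15 with pandas 2.3.3, numpy 2.4.6, matplotlib 3.10.9 and scipy 1.17.1. Positions are 1-based.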

Additional observations from a re-analysis of the deposited data

How the results depend on the processing

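Lists cut to equal length gave 598 lost and 214 gained regions, 609 and 203 when cut by total signal, and 333 and 150 when cut to the 10000 highest peaks. Windows of 500 bp on the maxima gave 422 gained regions. Equal length turned the difference in the share of peaks near gene ends from 9.31 to -2.34 percentage points, raised the share of regions called again to 82.4%, and gave 325 lost and 59 gained genes. It lowered the difference between near and far regions to 20.9 points and between chromosomes 19 and 18 to 17.99, and equal weight to rank deciles, added after seeing the data, to 9.51 and 10.1. Genes counted by the peak maximum, also added later, gave 63 gained. The rank fit called 619 higher and 585 lower regions with trend and robust moderation, 566 and 390 on total signal, 118 and 57 on percentiles, 61 and 23 on regions of 1 peak, 51 and 16 on windows, and 0 and 0 at equal length, where 2240 had unadjusted p under 0.05. Widths gave 92 wider and 383 narrower regions after centring, 9 and 67 on normal scores, and 16 and 173 centred at equal length (added later). The cause of these differences was not tested.

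The replicate number as a block gave 0 and 0 regions in the rank fit (2328 with unadjusted p under 0.05), 8560 narrower ones in the width fit, and 7 wider and 202 narrower after centring. Same-numbered libraries of the 2 arms had correlations of -0.01 to 0.0013 in their deviations, so the numbers give no pairing. For 3 pairs the smallest exact permutation p is 0.25. The paired count of lost regions was 7747, the same by construction.

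Leaving out 1 library gave 7975 to 10317 lost and 3 to 14 gained regions, 1788 to 2371 lost and 0 to 3 gained genes, and 48.2 to 56.7% of regions called again. The difference in peaks was -15351 to -12556, in covered length -66.2 to -58.0 Mb, in median width -902 to -764 bp and in the share near gene ends 7.92 to 10.6 points. Near and far regions differed by 37.2 to 40.5 points and chromosomes 19 and 18 by 31.6 to 34.2. The rank fit gave 0 to 7 higher and 0 to 6 lower regions, the width fit 5393 to 8706 narrower and 0 to 1 wider, and after centring 45 to 341 narrower and 1 to 38 wider. The lowest width count came without shCtrl replicate 3. No named region changed direction in any of these fits. All 16 named rank regions lost their call in at least 1 left-out fit. Counted by region and left-out fit, the call was lost in 91 cases and held in only 5. Adjusted p ranged over the alternatives from 0.00032 to 0.19 at KRT13 and from 0.00043 to 0.023 at SYT8, 0.00043 to 0.39 at ITGB7, 0.0014 to 0.15 at CHST11, 0.032 to 0.16 at UBALD2 and 0.062 to 0.49 at TFDP1. Of the 8 named width regions 5 lost their call in a left-out fit, namely ITGB7, CHST11, UBALD2, ZNF101 and TFDP1. Peaks were merged anew in left-out fits, so a named region could span other bases there, as at ITGB7. NR1D2 lost its call in another alternative (limma adjusted p = 0.017 to 0.096 over the alternatives). Depth is unknown and limits every count of lost calls.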
